A study of Homo sapiens with 9 samples.

Results

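The 10 genes SLC7A11, SLC3A2, SLC7A5, SLC7A1, SLC38A1, SLC38A2, SLC1A4, SLC1A5, SLC6A9 and SLC43A1, which encode plasma membrane carriers of amino acids or a subunit of such carriers, were followed in U937 cells, a human monocytic cell line. They were chosen by gene name, with earlier results of these data known. Each name occurred for 1 of the 60623 genes in the data, in all 9 libraries. The libraries are bulk RNA-seq of 3 stable lines: an empty vector control line (U937-CTR, genotype given as WT), a line over-expressing AML1-ETO (U937-AE, clone #4) and a line over-expressing ETO2-GLIS2 (U937-EG, clone #14). AML1-ETO joins the DNA-binding part of AML1 to the corepressor ETO, and ETO2-GLIS2 joins the corepressor ETO2 to the zinc fingers of GLIS2. Both carried an HA tag. All lines, the control line included, carried a retroviral vector and received 5 µg/ml doxycycline, the drug that switches the construct on, for 0, 12 or 48 h. In these libraries each fusion protein was studied in 1 clone, so an effect of the fusion protein and a property of the clone cannot be told apart here. Each of the 9 conditions had 1 library, so no difference between conditions has a replicate check, and no p-value is given.

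A library held between 15136397 and 18443639 reads on genes. RUNX1T1, which encodes ETO, went up in the AML1-ETO clone from 0.512 to 28.7 FPKM, and no library of the other lines exceeded 0.0240 FPKM. GLIS2 rose from 2.39 to 8.85 FPKM and CBFA2T3, which encodes ETO2, from 4.10 to 12.6 FPKM in the ETO2-GLIS2 clone. Of 12 myeloid markers, 7 to 9 had at least 1 FPKM in every library. CD14, a marker of mature monocytes, was at or below 0.0802 FPKM throughout. The summed level of these markers ranged from 829 to 2838 FPKM in 8 libraries and was 347 FPKM in the AML1-ETO clone at 48 h. In the uninduced control line, LYZ, PRTN3 and ELANE had 519, 469 and 428 FPKM of a sum of 1666.5 FPKM, so these genes weighed most in the sum there. From 0 to 48 h, PRTN3 and ELANE were past 2-fold lower in all 3 lines, LYZ in the AML1-ETO clone (-4.43 on the log2 scale) and the ETO2-GLIS2 clone (-1.95), and SPI1 in the AML1-ETO clone (-2.96). ITGAM was past 2-fold higher in the control line (1.24) and the ETO2-GLIS2 clone (2.36), and CD33 in the ETO2-GLIS2 clone (1.01). Of 12 markers of other cell types, 7 or 8 were listed at 0 in each library, 2 or 3 had at least 1 FPKM, and their summed level was 17.7 to 34.1 FPKM.

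Amino acid carriers differ in what they move and in which direction. SLC7A11 and SLC7A5 are light chains that each pair with the heavy chain SLC3A2, also called CD98 or 4F2hc: with SLC7A11 it forms the exchanger that brings in cystine, the source of cysteine for glutathione, against glutamate, and with SLC7A5 it forms LAT1, which brings in leucine and other large neutral amino acids. SLC7A1 carries arginine and lysine, SLC38A1 and SLC38A2 carry glutamine and other small neutral amino acids with sodium, SLC1A4 and SLC1A5 exchange alanine, serine, cysteine or glutamine, SLC6A9 carries glycine, and SLC43A1 carries large neutral amino acids without exchange. Several of these genes belong to the amino acid response, in which uncharged tRNA or other stress slows translation while the transcription factor ATF4 is made in larger amounts and binds elements in their promoters or first introns.

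Levels are given as FPKM, the reads on a gene per kilobase of exon, scaled to the reads on genes in the library, which allows genes to be compared with each other. Of the 10 genes, 9, written here as the expressed members, had 2.72 FPKM or more in every library. SLC6A9 (ENSG00000196517, chr1:43996483-44031462 of GRCh38) was at or below 0.0351 FPKM, from 0 to 3 reads in a library, and 3 reads correspond to 0.0384 FPKM in the shallowest library. It was therefore not detected above the limit of 3 reads and gets no fold change. Changes are log2 ratios of FPKM plus 0.01 FPKM, and a change past 2-fold in a gene with a mean of at least 1 FPKM over both libraries counts as a rise or a fall. Intervals are exact 95% Clopper-Pearson intervals from the reads recovered from the FPKM values. They cover counting error only, since reads without molecular identifiers can be copies of one molecule and each condition has 1 library. In bulk RNA, a change in the share of cells that express a gene and a change in RNA per cell cannot be told apart.

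The summed FPKM of the 10 genes was 289.5, 461.2 and 521.0 at 0, 12 and 48 h in the control line. It was 223.1, 314.0 and 433.7 in the AML1-ETO clone and 235.4, 345.6 and 513.4 in the ETO2-GLIS2 clone. The sum thus grew with time in every line, the control line included. At 48 h, 2 of the 9 expressed members had risen in the control line, 3 in the AML1-ETO clone and 6 in the ETO2-GLIS2 clone, where 8.00%, 17.3% and 10.8% of all genes tested had risen. None had fallen in the control line or the ETO2-GLIS2 clone, where 2.99% and 2.54% of all genes fell, and 1 had fallen in the AML1-ETO clone, where 11.3% did. The members that passed the filter had a median log2 fold change of 0.86, 0.61 and 1.11, beside 0.16, 0.22 and 0.16 over all genes. The median over all genes lay above 0 in each line, and was 0.02, 0.06 and 0.02 when libraries were scaled by their median ratio. Over the same time the reads recovered on genes of the mitochondrial genome went from 3.38% to 2.24% of the total in the control line, from 3.09% to 1.24% in the AML1-ETO clone and from 3.54% to 1.697% in the ETO2-GLIS2 clone. All recovered reads made up 94.43% to 96.36% of the totals, so these shares may be too low and their course is uncertain. The part of mitochondrial reads in the changes was not tested beyond the scaling without those genes described in the closing section.

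**Figure D1:**
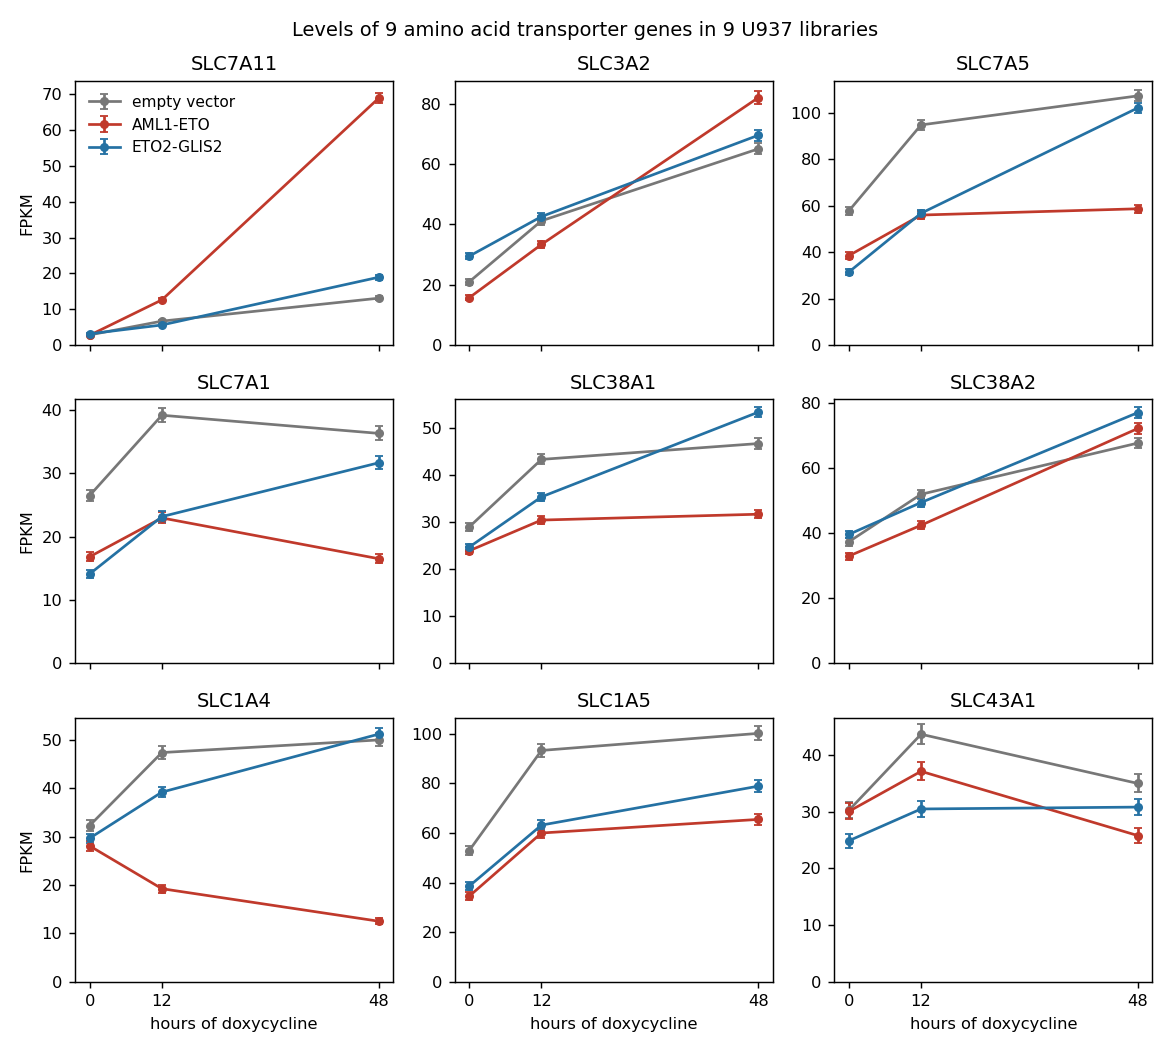
FPKM (vertical axes, each from 0 with its own scale) of the 9 expressed members against hours of doxycycline (horizontal axes) in the empty vector control line (grey), AML1-ETO (red) and ETO2-GLIS2 (blue) lines, 1 library per point, with bars for exact 95% counting intervals. SLC7A11 reached 68.9 FPKM in the AML1-ETO clone against 13.1 and 18.9 FPKM in the other lines at 48 h, and SLC1A4 went down to 12.5 FPKM in the AML1-ETO clone while the other lines went up.

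SLC7A11 (ENSG00000151012, chr4:138164097-138242349 of GRCh38) changed most of the members in every line at 48 h. The control line had 2.81, 6.67 and 13.1 FPKM at 0, 12 and 48 h. The AML1-ETO clone had 2.72, 12.6 and 68.9 FPKM, from 435 reads at 0 h and 10119 reads at 48 h. The ETO2-GLIS2 clone had 3.13, 5.59 and 18.9 FPKM. The uninduced lines differed little, the intervals of both log2 differences from the control line including 0 (-0.05, interval -0.24 to 0.15, for AML1-ETO and 0.16, interval -0.03 to 0.34, for ETO2-GLIS2), whereas the 48 h levels were far apart.

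The log2 fold change of SLC7A11 at 48 h was 2.21 (2.07 to 2.37) in the control line, 4.66 (4.53 to 4.81) in the AML1-ETO clone and 2.59 (2.47 to 2.73) in the ETO2-GLIS2 clone. These are rises of 4.64-fold, 25.3-fold and 6.03-fold. Of all genes tested, 161 of 11624, 142 of 12030 and 168 of 11696 had a larger log2 fold change. The rise in the AML1-ETO clone exceeded that in the control line by 2.44 on the log2 scale (2.24 to 2.65), a difference that 122 of 11099 genes surpassed. The ETO2-GLIS2 clone exceeded the same control line by 0.38 (0.18 to 0.58), and 2113 of 11093 genes had a larger difference. At 12 h, the AML1-ETO clone was already ahead by 0.96 (0.74 to 1.19), while the ETO2-GLIS2 clone was behind by 0.41 on the log2 scale (-0.41, interval -0.63 to -0.19). Exons of SLC7A11-AS1 on the opposite strand cover 9.0% of the exon bases of SLC7A11. SLC7A11-AS1 had at most 0.466 FPKM in 8 libraries, and 1.55 FPKM in the 48 h library of the AML1-ETO clone, and reads from the strands of such a pair cannot be told apart here.

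SLC3A2 (ENSG00000168003, chr11:62856109-62888860), the shared heavy chain, rose in all 3 lines. It had 20.9, 41.2 and 65.0 FPKM at 0, 12 and 48 h in the control line, 15.7, 33.3 and 82.0 FPKM in the AML1-ETO clone and 29.4, 42.6 and 69.5 FPKM in the ETO2-GLIS2 clone. Its log2 fold change at 48 h was 1.63 (1.56 to 1.71), 2.39 (2.30 to 2.47) and 1.24 (1.18 to 1.31). The AML1-ETO clone started lowest and ended highest. Relative to the control line, the change was 0.75 larger in the AML1-ETO clone (0.64 to 0.87) and differed by -0.40 in the ETO2-GLIS2 clone (-0.50 to -0.29), whose uninduced level was 0.49 higher on the log2 scale (0.41 to 0.58).

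SLC7A5 (ENSG00000103257, chr16:87830023-87869507), the LAT1 light chain, was the highest member at 0 h in the control line and the AML1-ETO clone. Its levels were 57.6, 94.7 and 107 FPKM in the control line, 38.4, 55.9 and 58.6 FPKM in the AML1-ETO clone and 31.3, 56.7 and 102 FPKM in the ETO2-GLIS2 clone. Only the ETO2-GLIS2 clone passed 2-fold at 48 h, with a log2 fold change of 1.7 (1.64 to 1.77), compared with 0.90 (0.84 to 0.95) in the control line and 0.61 (0.54 to 0.68) in the AML1-ETO clone. That change exceeded the control line's by 0.81 (0.73 to 0.89). The ETO2-GLIS2 clone began 0.88 lower on the log2 scale (-0.88, interval -0.95 to -0.81) and ended below the control line, at 102 against 107 FPKM. SLC7A5P1, a pseudogene with near-identical sequence, had 3.33 to 11.4 FPKM, so reads may have been split or lost between both, and the SLC7A5 values are uncertain to that extent.

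The balance among the light chains moved towards SLC7A11 in the AML1-ETO clone. Of the summed FPKM of SLC7A5, SLC7A6, SLC7A7, SLC7A8, SLC7A10 and SLC7A11, the light chains of SLC3A2, SLC7A11 made up 4.49%, 6.45% and 10.7% at 0, 12 and 48 h in the control line. The share was 6.27%, 17.8% and 53.0% in the AML1-ETO clone and 8.79%, 8.76% and 15.4% in the ETO2-GLIS2 clone. For each SLC7A11 FPKM there were 20.5 SLC7A5 FPKM at the start and 8.19 at 48 h in the control line, 14.1 and 0.850 in the AML1-ETO clone, and 10.0 and 5.39 in the ETO2-GLIS2 clone. SLC7A11 mRNA was above SLC7A5 mRNA in 1 of 9 libraries, the AML1-ETO clone at 48 h. The FPKM of SLC3A2 per light chain FPKM went from 0.335 to 0.533 in the control line and from 0.361 to 0.630 in the AML1-ETO clone, and from 0.826 to 0.566 in the ETO2-GLIS2 clone. These are ratios of mRNA levels, not of assembled transporters.

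**Figure D2:**
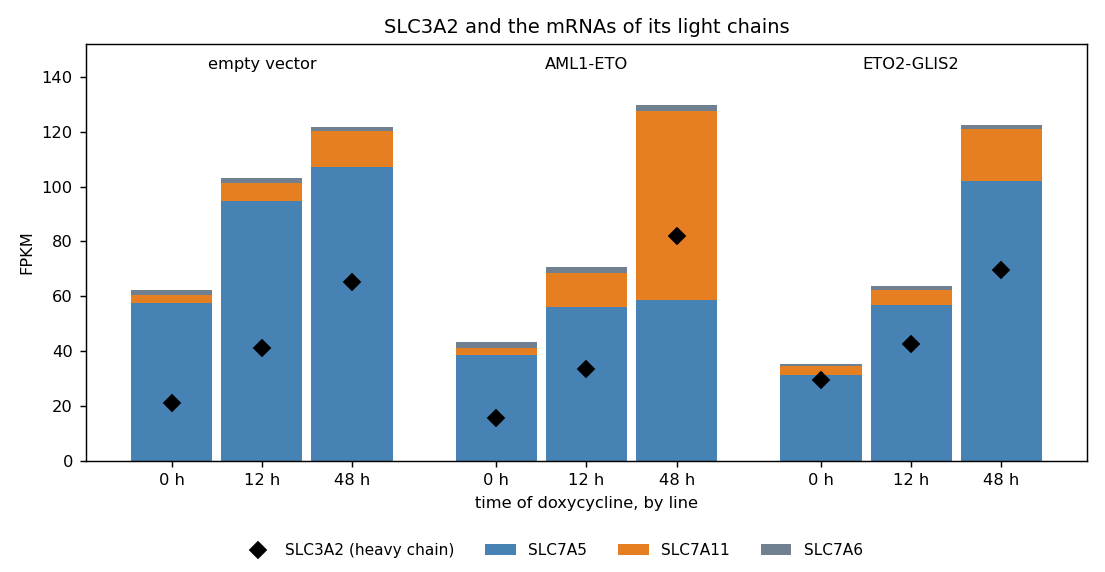
Stacked FPKM (vertical axis, from 0) of the light chain mRNAs SLC7A5 (blue), SLC7A11 (orange) and SLC7A6 (grey), the other light chains being too low to draw, with the FPKM of the heavy chain SLC3A2 as a diamond, for the 3 lines at 0, 12 and 48 h (horizontal axis), 1 library per bar. SLC7A11 fills 53.0% of the light chain FPKM in the AML1-ETO clone at 48 h, against 10.7% in the control line and 15.4% in the ETO2-GLIS2 clone.

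SLC1A4 (ENSG00000115902, chr2:64988479-65023865), a carrier of alanine, serine, cysteine and threonine also called ASCT1, was the only member that fell. The AML1-ETO clone had 28.1, 19.2 and 12.5 FPKM at 0, 12 and 48 h, from 3231 reads at 0 h and 1321 reads at 48 h. In the control line it had 32.3, 47.3 and 49.96 FPKM and in the ETO2-GLIS2 clone 29.6, 39.2 and 51.2 FPKM. The 3 lines thus lay between 28.1 and 32.3 FPKM before doxycycline and moved apart afterwards. The log2 fold change at 48 h was -1.17 (-1.26 to -1.07) in the AML1-ETO clone, 0.63 (0.57 to 0.69) in the control line and 0.79 (0.73 to 0.85) in the ETO2-GLIS2 clone. The AML1-ETO clone differed from the control line by -1.10 (-1.2 to -1.0) at 12 h and by -1.80 (-1.91 to -1.69) at 48 h, and 573 of 11099 genes had a lower difference at 48 h. At 48 h in the AML1-ETO clone, 11.3% of all genes had fallen, so a fall was common in that library. The summed level of the myeloid markers went from 2712 to 347 FPKM in that clone. It went from 1666.5 to 939.9 FPKM in the control line and from 2381 to 829 FPKM in the ETO2-GLIS2 clone. SPI1, one of these markers, had log2 fold changes of -2.96 in the AML1-ETO clone, 0.54 in the control line and -0.12 in the ETO2-GLIS2 clone. A link between these markers and SLC1A4 was not tested.

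SLC1A5 (ENSG00000105281, chr19:46774883-46788594), or ASCT2, the relative of SLC1A4 known for glutamine uptake, did not share that course. It had 52.9, 93.3 and 100.2 FPKM in the control line, 34.5, 60.0 and 65.5 FPKM in the AML1-ETO clone and 38.6, 63.2 and 78.9 FPKM in the ETO2-GLIS2 clone. Its log2 fold change at 48 h was 0.92 (0.86 to 0.99), 0.92 (0.84 to 1.01) and 1.03 (0.96 to 1.11), so the AML1-ETO clone and the control line differed by 0.00 (-0.10 to 0.11). Only the ETO2-GLIS2 value was past 2-fold, and it was 0.90 with median-ratio scaling. The ratio of SLC1A5 to SLC1A4 FPKM was 1.23, 3.12 and 5.24 at 0, 12 and 48 h in the AML1-ETO clone. It went from 1.64 to 2.01 in the control line and from 1.30 to 1.54 in the ETO2-GLIS2 clone.

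SLC38A1 and SLC38A2 lie near each other on chromosome 12 and encode SNAT1 and SNAT2. Both were higher at 48 h than at 0 h in all 3 lines, and SLC38A1 differed more among the lines. SLC38A2 (ENSG00000134294, chr12:46358188-46372773) had 37.3, 51.9 and 67.6 FPKM in the control line, 32.9, 42.4 and 72.1 FPKM in the AML1-ETO clone and 39.6, 49.4 and 77.0 FPKM in the ETO2-GLIS2 clone. Its log2 fold changes at 48 h were 0.86 (0.80 to 0.92), 1.13 (1.07 to 1.19) and 0.96 (0.91 to 1.01), all near the 2-fold line, and the AML1-ETO value was 0.98 with median-ratio scaling, which ends that call. SLC38A1 (ENSG00000111371, chr12:46183063-46269043) had 29.0, 43.3 and 46.7 FPKM in the control line. It had 23.9, 30.4 and 31.7 FPKM in the AML1-ETO clone and 24.7, 35.4 and 53.4 FPKM in the ETO2-GLIS2 clone. Its log2 fold changes at 48 h were 0.69 (0.64 to 0.74), 0.41 (0.34 to 0.47) and 1.11 (1.06 to 1.16), so only the ETO2-GLIS2 clone was past 2-fold, and its value was 0.98 with median-ratio scaling. The ratio of SLC38A2 to SLC38A1 FPKM went from 1.38 to 2.28 in the AML1-ETO clone, and stayed between 1.20 and 1.60 in the 6 libraries of the other lines.

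SLC7A1 (ENSG00000139514, chr13:29509414-29595688), or CAT1, had 26.5, 39.1 and 36.3 FPKM in the control line. It had 16.8, 22.9 and 16.5 FPKM in the AML1-ETO clone and 14.1, 23.1 and 31.6 FPKM in the ETO2-GLIS2 clone. All 3 lines were higher at 12 h than at 0 h, by 0.56, 0.45 and 0.72 on the log2 scale. After that the AML1-ETO clone came back to where it had been, with a log2 fold change from 0 to 48 h of -0.03 (-0.12 to 0.06), and the ETO2-GLIS2 clone went on to 1.17 (1.09 to 1.24), against 0.45 (0.39 to 0.52) in the control line. The ETO2-GLIS2 clone exceeded the control line by 0.71 (0.61 to 0.81) after an uninduced level that was lower by 0.91 on the log2 scale (-0.91, interval -0.99 to -0.83), so the level at 48 h did not exceed that of the control line.

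SLC43A1 (ENSG00000149150, chr11:57484534-57515702), or LAT3, changed least of the 9 expressed members in the control line and the ETO2-GLIS2 clone. It had 30.2, 43.7 and 35.0 FPKM in the control line, 30.0, 37.1 and 25.8 FPKM in the AML1-ETO clone and 24.9, 30.5 and 30.8 FPKM in the ETO2-GLIS2 clone. The log2 fold changes at 48 h were 0.21 (0.12 to 0.31), -0.22 (-0.32 to -0.12) and 0.31 (0.21 to 0.41), none past 2-fold. In the control line and the AML1-ETO clone the 12 h library held the highest level.

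**Figure D3:**
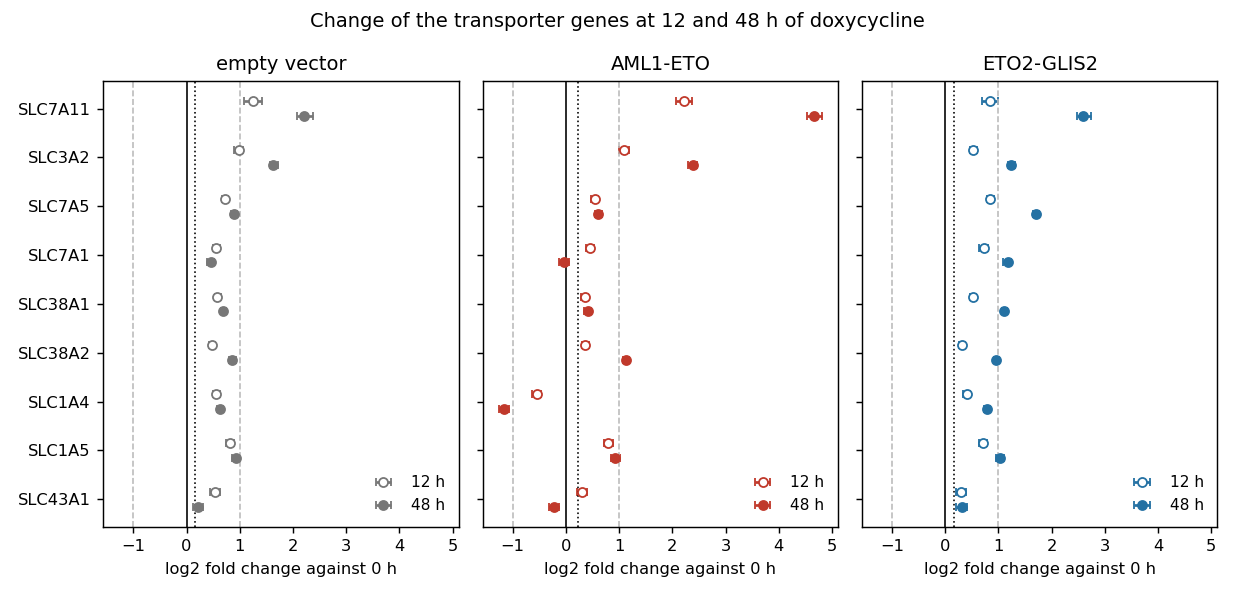
Log2 fold change against 0 h (horizontal axes, same scale) of the 9 expressed members at 12 h (open points) and 48 h (filled points) in each line, with bars for 95% counting intervals. Dashed lines mark 2-fold in either direction and the dotted line the median of all genes at 48 h (0.16, 0.22 and 0.16); 6 members lie past 2-fold at 48 h in the ETO2-GLIS2 clone, and SLC1A4 is the only member left of the lower line, in the AML1-ETO clone at -1.17.

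The early time point held part of these changes. At 12 h, 1 of 9 expressed members had risen in the control line (SLC7A11), 2 in the AML1-ETO clone (SLC7A11 and SLC3A2) and 0 in the ETO2-GLIS2 clone, where 5.64%, 6.57% and 3.03% of all genes had risen. None had fallen, where 1.88%, 2.39% and 1.46% of all genes had. All 9 were higher at 12 h than at 0 h in the control line and the ETO2-GLIS2 clone and 8 in the AML1-ETO clone, beside 68.0%, 67.4% and 66.8% of all genes, with medians of 0.58, 0.53 and 0.45. The rise of SLC3A2 in the AML1-ETO clone at 12 h, 1.09 (0.99 to 1.19), was no longer past 2-fold under the scalings by median ratio or without mitochondrial genes. From 12 to 48 h the median change was 0.11 in the control line, 0.07 in the AML1-ETO clone and 0.59 in the ETO2-GLIS2 clone, beside 0.0, 0.02 and 0.06 over all genes. In that interval 7, 6 and 9 members were higher in the 3 lines, beside 49.6%, 51.1% and 56.8% of all genes. SLC43A1 was higher in the ETO2-GLIS2 clone by only 0.02 (-0.08 to 0.11). In the AML1-ETO clone SLC7A11 went up by another 2.45 (2.38 to 2.52) and SLC3A2 by 1.30 (1.23 to 1.36), while SLC7A1, SLC1A4 and SLC43A1 were lower by -0.47, -0.62 and -0.53.

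The clones differed before doxycycline. Against the uninduced control line, all 9 expressed members were lower in the uninduced AML1-ETO clone. Their median log2 difference was -0.28, beside 0.01 over all genes. For SLC43A1 (-0.01, interval -0.11 to 0.09) and SLC7A11 (-0.05, interval -0.24 to 0.15) the counting interval included 0. In the uninduced ETO2-GLIS2 clone 6 of 9 were lower, with a median of -0.23 beside -0.02. The share of all genes that were higher was 51.1% in the AML1-ETO clone and 48.6% in the ETO2-GLIS2 clone. No member was past 2-fold in either direction. Of all genes, 2.67% were past 2-fold higher and 2.24% past 2-fold lower in the AML1-ETO clone, and 3.42% and 2.99% in the ETO2-GLIS2 clone. The lowest differences were in SLC7A1 (-0.65), SLC1A5 (-0.62) and SLC7A5 (-0.58) for AML1-ETO and in SLC7A1 (-0.91) and SLC7A5 (-0.88) for ETO2-GLIS2. A larger fold change in a clone can therefore start from a lower level, as it did for SLC7A5 and SLC7A1.

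Set against the control line, which both clones share as their reference, the members fell into few patterns at 48 h. In the AML1-ETO clone SLC7A11 and SLC3A2 changed more than in the control line, and the changes of SLC1A4, SLC43A1 and SLC7A1 were below 0 where those of the control line were above it, by differences of -1.80, -0.43 and -0.48. The change of SLC7A1 in that clone, -0.03, had an interval that included 0. The remaining 4 lay between -0.29 and 0.27. In the ETO2-GLIS2 clone SLC7A5, SLC7A1 and SLC38A1 exceeded the control line by 0.81, 0.71 and 0.42 and SLC7A11 by 0.38, SLC3A2 was behind by 0.40 (-0.40), and the remaining 4 lay between 0.10 and 0.16. The median difference over all genes was 0.01 and 0.02. The study included the control line to set aside genes that doxycycline itself may change, and of the members SLC7A11 and SLC3A2 rose past 2-fold there.

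**Figure D4:**
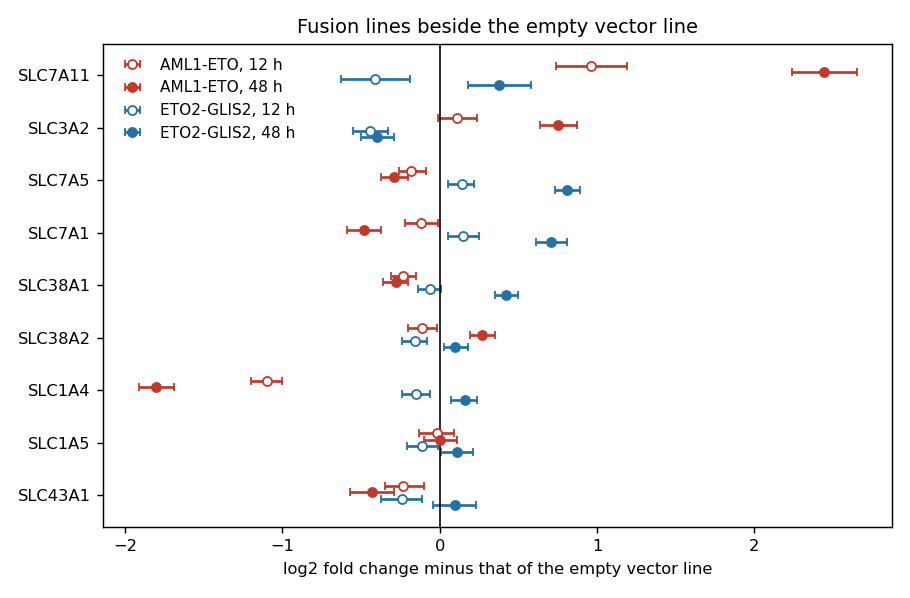
Log2 fold change of each clone minus that of the control line (horizontal axis) for the 9 expressed members, at 12 h (open points) and 48 h (filled points), AML1-ETO in red and ETO2-GLIS2 in blue, with bars for approximate 95% counting intervals. In the AML1-ETO clone SLC7A11 lies at 2.44 and SLC1A4 at -1.80 at 48 h, and in the ETO2-GLIS2 clone SLC7A5 lies at 0.81.

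The order of the members by level showed the same shift. In the control line at 48 h, the order was SLC7A5, SLC1A5, SLC38A2, SLC3A2, SLC1A4, SLC38A1, SLC7A1, SLC43A1 and SLC7A11, in which SLC38A2 and SLC3A2, and SLC7A1 and SLC43A1, overlapped in their counting intervals. In the AML1-ETO clone at 48 h it was SLC3A2, SLC38A2, SLC7A11, SLC1A5, SLC7A5, SLC38A1, SLC43A1, SLC7A1 and SLC1A4, in which SLC7A11 and SLC1A5 overlapped. SLC7A11 was the 9th of the 10 members in the other 8 libraries. Before doxycycline, 59.5% to 60.5% of the genes above 0 had a lower FPKM than SLC7A11, and in the AML1-ETO clone at 48 h 97.9% did.

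Because several members are known targets of ATF4, the windows around their RefSeq start sites (250 bases before to 50 after, GRCh38.p14) were searched on both strands for the core of the ATF4 response element, TGATGNAA. The table held 16 start windows of 9 of the 10 members and none of SLC7A11. The core occurred in 5 windows, 1 for each of 5 members, and in 3.62% of all 35116 windows. The matches are printed with their flanking bases, 5′ to 3′ on the strand of the gene, so that the sites of members that rose and of the member that fell can be compared. Capitals mark the match, which in SLC1A4 and SLC3A2 lies on the other strand. Positions count from 1 at the start site of the window that held the match.
SLC3A2: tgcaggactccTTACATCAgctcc
SLC38A1: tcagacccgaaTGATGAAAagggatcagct
SLC7A1: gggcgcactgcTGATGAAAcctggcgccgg
SLC1A5: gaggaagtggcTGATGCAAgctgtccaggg
SLC1A4: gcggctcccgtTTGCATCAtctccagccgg

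These stretches lie at chr11:62881725-62881748 for SLC3A2 (plus strand, first base of the match at position 38), chr12:46266502-46266531 for SLC38A1 (minus strand, -4), chr13:29595663-29595692 for SLC7A1 (minus strand, 8), chr19:46784893-46784922 for SLC1A5 (minus strand, -97) and chr2:64989381-64989410 for SLC1A4 (plus strand, -7). SLC1A4, the member that fell in the AML1-ETO clone, thus has the letters of this core as well, as do SLC3A2, which rose in that line, and SLC7A1, which ended where it began. The window search found CACGTG, the E-box bound by MYC and related factors, in 3 windows (SLC7A5, SLC1A5 and SLC43A1) and 7.26% of all windows. The core of the antioxidant response element, TGACNNNGC, was in 4 windows (SLC3A2, SLC7A5, SLC7A1 and SLC1A5) and 13.3% of all windows. TGTGGT, a Runt site that AML1 can bind, was in 1 window (SLC38A1) and 13.1% of all windows. No match of one motif overlapped a match of another. A member can have several start windows, and the ATF4 core and the E-box of SLC1A5 (chr19:46787327-46787354) lie in different ones. The ATF4 core stretches of SLC3A2, SLC38A1, SLC1A5 and SLC1A4 lie inside the gene spans given above, downstream of the outermost start. Which start these cells use was not tested. A match is a description of letters in these windows and says nothing of binding, and a window without the letters says nothing of the factor. The E-box of SLC7A5 (capitals, position -130, chr16:87869621-87869648, minus strand) is shown as the one in the member with the highest level.
SLC7A5: gccggacgacgCACGTGctccgagctgg

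Genes of the amino acid response moved in the same libraries. Of 12 genes on this list, 11 passed the filter in each line. At 48 h, 8, 7 and 8 of them had risen in the control line, the AML1-ETO clone and the ETO2-GLIS2 clone, where 8.00%, 17.3% and 10.8% of all genes rose. None had fallen, where 2.99%, 11.3% and 2.54% of all genes fell. Without regard to the 2-fold limit, 10, 8 and 10 were higher and 1, 3 and 1 were lower. The list was chosen with earlier results of these data known, so its counts beside all genes are a description only. The medians were 1.26, 1.85 and 1.42 beside 0.16, 0.22 and 0.16 over all genes. ATF4 had 109, 194 and 249 FPKM at 0, 12 and 48 h in the control line, 86.7, 198 and 312 FPKM in the AML1-ETO clone and 86.8, 154 and 217 FPKM in the ETO2-GLIS2 clone. DDIT3, a stress factor downstream of ATF4, went from 0.79957 to 8.65, from 1.20 to 7.89 and from 2.66 to 7.998 FPKM. TRIB3, which restrains ATF4, rose from 17.2 to 52.8, from 16.6 to 67.7 and from 14.8 to 39.4 FPKM. SESN2, a leucine sensor that restrains mTORC1, rose by 1.71, 2.50 and 2.38 on the log2 scale, and the serine synthesis enzyme PSAT1 rose by 1.92, 1.63 and 2.30. CHAC1, which breaks down glutathione, rose from 1.65 to 12.0, from 1.18 to 8.78 and from 1.30 to 8.67 FPKM. CEBPB, a bZIP factor that can partner ATF4, rose in the control line (1.26) and had a log2 fold change of -0.62 in the AML1-ETO clone and 0.82 in the ETO2-GLIS2 clone. The asparagine synthetase gene ASNS, a textbook target of this response, was at or below 0.137 FPKM in all 9 libraries and did not pass the filter. Exon overlaps with other genes were looked up only for the members, so a loss of ASNS reads to an overlapping gene was not checked.

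**Figure D5:**
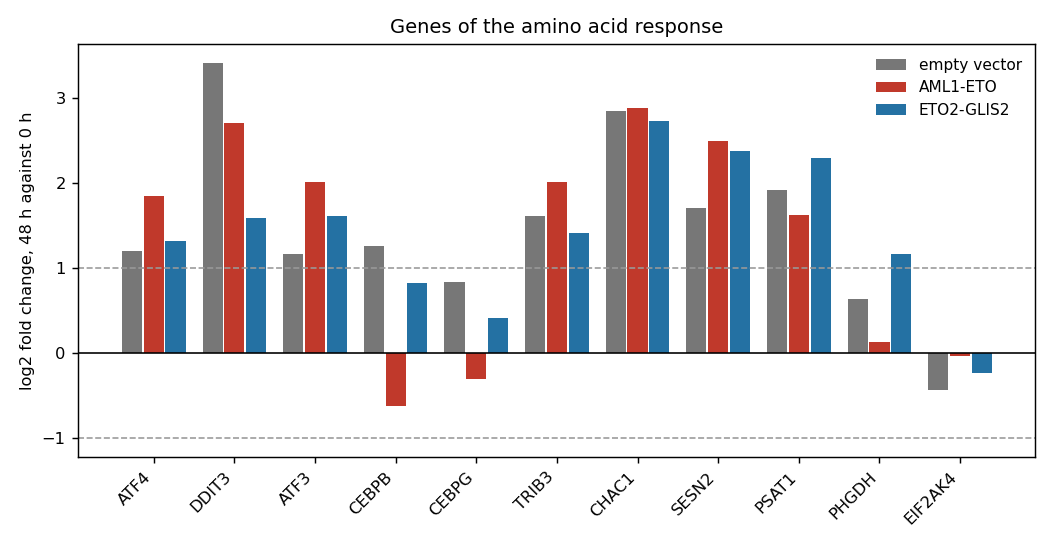
Log2 fold change from 0 to 48 h of doxycycline (vertical axis, bars from 0) of the 11 genes of the amino acid response list that passed the filter, in the empty vector control line (grey), AML1-ETO (red) and ETO2-GLIS2 (blue) lines, 1 library per condition and no error bars. ATF4 stood at 1.20, 1.85 and 1.32 and CEBPB at 1.26, -0.62 and 0.82; dashed lines mark 2-fold.

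Of 41 further transporter genes, 11, 11 and 12 passed the filter, and between 22 and 24 were listed at 0 in an uninduced line. None was past 2-fold at 48 h in the control line or the ETO2-GLIS2 clone, where 8.00% and 10.8% of all genes rose and 2.99% and 2.54% fell, so that with so few genes a count of 0 differs little from those shares. The medians were -0.13, -0.28 and 0.37, beside 0.16, 0.22 and 0.16 over all genes, and 5, 5 and 8 genes were higher. The AML1-ETO clone had 3 falls and 1 rise, where 11.3% and 17.3% of all genes fell and rose. SLC6A6, which carries taurine, fell from 29.4 to 8.79 FPKM there (log2 fold change -1.74), and SLC66A1, which exports cationic amino acids from lysosomes, fell from 30.4 to 7.88 FPKM (-1.95). The glutamate carrier SLC1A3 fell from 2.56 to 0.472 FPKM and SLC38A6 rose from 0.738 to 3.12 FPKM, both named after their values were seen. SLC6A6 and SLC66A1 had log2 fold changes within -0.34 and 0.24 in the other lines.

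Cystine that enters through SLC7A11 serves glutathione synthesis, and NRF2 is a known activator of that pathway and of SLC7A11. Of 12 genes of the NRF2 pathway and of glutathione synthesis, 11 passed the filter, and 0, 2 and 1 rose in the 3 lines in the same order, beside 8.00%, 17.3% and 10.8% of all genes, which are near the shares of the list. The medians were 0.29, 0.40 and 0.45 beside 0.16, 0.22 and 0.16 over all genes, with 8, 6 and 7 of the 11 genes higher and 3, 5 and 4 lower. The lower genes in the AML1-ETO clone were KEAP1 (-0.08), HMOX1 (-0.26), GCLC (-0.10), GSR (-0.61) and GCLM (-1.98). NQO1, a classical NRF2 target, rose from 9.11 to 62.7 FPKM in the AML1-ETO clone (log2 fold change 2.78), went from 13.1 to 26.2 FPKM in the ETO2-GLIS2 clone (0.99) and was at 12.0 and 15.3 FPKM in the control line (0.35). OSGIN1, another target, rose from 0.456 to 3.78 FPKM in the AML1-ETO clone and from 0.537 to 1.77 FPKM in the ETO2-GLIS2 clone, with 0.763 and 1.29 FPKM in the control line. GCLM, a subunit of the enzyme that starts glutathione synthesis, fell from 7.24 to 1.83 FPKM in the AML1-ETO clone and had log2 fold changes of -0.16 and -0.29 in the control line and the ETO2-GLIS2 clone. OSGIN1, GCLM and the other lower genes were named after their values were seen. NFE2L2, which encodes NRF2, had log2 fold changes of 0.53, 0.76 and 0.60. Of 19 genes by which mTORC1 senses amino acids, 18, 17 and 18 passed the filter. Of these, 2, 0 and 0 rose, where 8.00%, 17.3% and 10.8% of all genes did. Their medians were 0.35, 0.18 and 0.12 beside 0.16, 0.22 and 0.16 over all genes. The 2 genes, in the control line, were FLCN, from 3.79 to 7.60 FPKM, and LAMTOR5, from 2.96 to 6.69 FPKM, the latter named after its values were seen. MYC, which is known to raise SLC7A5 and SLC1A5, had 40.003, 27.1 and 21.1 FPKM in the control line, 35.1, 49.9 and 13.8 FPKM in the AML1-ETO clone and 27.8, 27.5 and 18.1 FPKM in the ETO2-GLIS2 clone, lowest at 48 h in every line.

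SLC7A11 had the widest range of the expressed members, and the genes with the most similar course were sought by the root mean square difference of centred log2 profiles over the 9 libraries, which share their lines and times. Among 7227 genes with a mean of at least 5 FPKM, the nearest were MT2A, a metallothionein that binds zinc and other metals (0.41), ZNF117 (0.42), ATF5, a relative of ATF4 (0.55), PLSCR1 (0.59) and PLIN2, a lipid droplet coat protein (0.59). MT2A went from 20.7 to 123 FPKM in the control line, from 31.7 to 450.3 FPKM in the AML1-ETO clone and from 38.1 to 261 FPKM in the ETO2-GLIS2 clone. ATF5 went from 3.21 to 19.5, from 2.44 to 43.7 and from 3.97 to 20.4 FPKM. The nearest member, SLC3A2, was at 0.88, the 62nd gene in this order, followed by SLC38A2 at 1.12. The farthest was SLC1A4 at 1.80.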

How the data were processed

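RNA-seq was measured in 9 U937 libraries, grouped into lines and times by the labels. The authors aligned reads to hg38 with HISAT2 (2.0.5), used SAMtools (1.7) and, at default settings, HTSeq (0.9.1) for gene counts, and deposited FPKM for 60623 genes. The submitters' processing notes also name DESeq2 (1.22.2). The library kit does not mark strand, and the annotation version is not given in the sources used here. Exons that overlap on opposite strands and similar gene copies can therefore shift single values, and FPKM shift together when abundant genes change.

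From the deposited FPKM, reads were recovered as whole multiples of the value of 1 read, for 23887 of 23889 genes above 0 in at least 3 libraries (99.99%). On simulated data, 99.4% of 11322 genes received exactly the simulated reads. The recovered reads summed to 94.43% to 96.36% of the totals. For genes with very many reads a shorter length can pass as well and give too few reads, and the missing part was not traced to single genes. Totals on genes were 15136397 to 18443639. Reads served for intervals (exact Clopper-Pearson, 95%, and for differences between lines the delta method) and for the limit of 3 reads. Fold changes used log2 of FPKM plus 0.01, with calls past 2-fold at a mean of at least 1 FPKM. With 1 library per condition, a change within 1 line could not be tested. A fit over all 9 libraries with line and time as terms, which would test a change shared by the lines, was not run, nor was any count test. Alternatives were a pseudocount of 1 FPKM, no filter, a mean of at least 5 FPKM, 2 other scalings and a 1.5-fold threshold.

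The members, gene lists and motifs were chosen with earlier results of these data known. Named genes are the members, ATF4, DDIT3, NFE2L2, MYC and the genes of the constructs, up to 5 genes per list and line past 2-fold at a mean of at least 5 FPKM, and the 5 genes nearest in profile to the member with the widest range. Coordinates and start windows come from RefSeq (GRCh38.p14), which gave windows for 9 of 10 members. Exon overlaps come from an annotation on GRCh37, without its coordinates. Its exon lengths equal those implied by the FPKM for 8 of 10 members. Python (3.11.15), numpy (2.4.6), pandas (2.3.3), scipy (1.17.1) and matplotlib (3.10.9) were used.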

Additional observations from a re-analysis of the deposited data

Results flagged for a closer look

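Of the changes from 0 h, 3 members went one way in the AML1-ETO clone and the other way in another line. With 1 library per condition, none of these differences was tested. For SLC1A4, the log2 fold change of the AML1-ETO clone minus that of the ETO2-GLIS2 clone was -0.95 at 12 h and -1.96 at 48 h, and minus that of the control line it was -1.10 at 12 h and -1.80 at 48 h. For SLC7A1 at 48 h, the differences were -1.20 from the ETO2-GLIS2 clone and -0.48 from the control line, and the counting interval of the AML1-ETO change itself, -0.12 to 0.06, included 0. For SLC43A1 at 48 h, they were -0.53 and -0.43. The median of all genes in the AML1-ETO clone at 48 h was 0.22. Of these members SLC1A4 was past 2-fold in the AML1-ETO clone, SLC7A1 in the ETO2-GLIS2 clone and SLC43A1 in no line.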

How the results depend on the processing

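Of 81 member changes at 48 h recomputed under other settings, 44 stayed inside their counting interval, 37 moved outside and 0 changed sign. Of 120 counts and medians, 103 kept within the limits set and 17 moved. A count was kept if it was equal or, with both above 0, differed by at most 1.5-fold. A median was kept if it lay within the main member changes, the lowest and the highest left out. These limits are wide: 6 rises in the ETO2-GLIS2 clone at 48 h that became 4 count as kept. With a 1.5-fold threshold, the risen members at 48 h were 7 in the control line and 5 in the AML1-ETO clone, those at 12 h were 4 in the control line and 4 in the ETO2-GLIS2 clone, and 2 were lower in each uninduced clone. Without a filter on low values, SLC6A9 with its 0 to 3 reads was added to the falls, giving 2 in the AML1-ETO clone at 48 h and 1 in each line at 12 h. With a mean of at least 5 FPKM, 0 members had risen in the control line at 12 h, since SLC7A11 was then below the filter. Median-ratio scaling left 1 rise at 12 h in the AML1-ETO clone and medians at 12 h of 0.45 in the control line and 0.30 in the AML1-ETO clone. It also left 2 rises at 48 h in the AML1-ETO clone and 4 in the ETO2-GLIS2 clone, where SLC38A1 (0.98) and SLC1A5 (0.90) were no longer past 2-fold. Scaling without mitochondrial genes left 1 rise at 12 h in the AML1-ETO clone, a median of 0.53 at 12 h in the control line, and 1 member past 2-fold lower in the uninduced ETO2-GLIS2 clone. These scalings shift all genes of a library together. The labels give no replicate numbers by which samples could be paired. Each change was taken within 1 line from 1 library at each time, so leaving out a library leaves no value, and a fit over all lines with line as a block was not run.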
